A study of Mus musculus with 116 samples.

Results

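The junctions described here join a Cas9 break in c-Myc on mouse chromosome 15 to the Jk end of the immunoglobulin kappa locus (Igk) on chromosome 6. They were read in pro-B cells of the mouse, a progenitor stage of the B lineage, kept growing by the viral oncogene v-Abl. Each member is a row of the authors' junction lists whose partner lies on chromosome 6 from 70720000 to 70760000, in the mm10 assembly. That window runs from just before Jk1 to beyond the constant exon Ck. It held 3347 of 891855 junctions in 54 libraries, which is 7.73% of the 43287 junctions that left chromosome 15. Members were found in 37 libraries, and 3292 of them (98.4%) were distinct in library, position, orientation, c-Myc end and joint.

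Variable, joining and constant segments of Igk lie far apart in the germline, and the RAG recombinase cuts the DNA between a segment and its recombination signal sequence to bring a Vk segment to a Jk segment. Each cut leaves a coding end, which carries the segment and is closed as a hairpin, and a signal end, which carries the recombination signal sequence and is blunt. Classical non-homologous end joining repairs both: Ku70, with Ku80, binds the broken ends, and ligase IV (Lig4) seals them. A coding or signal end can instead be joined to a break elsewhere, which is a translocation. Joining of c-Myc to an immunoglobulin locus is a hallmark of B-lineage tumours in mice.

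All 54 libraries came from cells with an Emu-Bcl2 transgene and from nucleofection of Cas9 bound to a c-Myc guide RNA. In 48 of them the cells were held in G1 with STI-571, an inhibitor of the Abl kinase, at 3 µM for 96 h, a state in which RAG is active in cells of this type. The other 6 libraries came from cycling cells without STI-571. Cells were WT (clones A and B), Ku70-/- (A1 and B1), Lig4-/- (A1, B1 and C) or Lig4-/-Ku70-/- (A1_1 and C1). Add-back cells were Lig4-/-Ku70-/- with Ku70 restored (A1_1 and C1, written +Ku70) and Lig4-/- with Lig4 restored (A1 and C, written +Lig4). Clones whose names begin with the same letter are treated as a lineage. How clones were derived and how proteins were restored is not stated in the labels, and each genotype rests on 2 or 3 clones. Each of the 18 groups had 3 libraries. Nothing in the labels says that replicates came from separate cultures, so p-values measure only the spread between these libraries. WT clone A and Lig4-/- clone A1 recur in further sets with their own raw read number. Set b was paired with the cycling cells, and set c with the double-deficient and add-back cells.

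The break lay at 61987303 on chromosome 15, within Myc (61985341 to 61990361 in RefSeq's GRCm38.p6, the assembly of mm10). This is the most frequent last c-Myc base in WT clone A, so a loss of 0 in that group is in part by construction. Whether the site is exonic was not analysed here. In RefSeq the Jk segments begin at 70722562 (Jk1), 70722916 (Jk2), 70723223 (Jk3), 70723548 (Jk4) and 70723886 (Jk5), and Ck spans 70726435 to 70726754. A read that enters the segment itself was assigned to the coding side, and a read that enters the recombination signal to the signal side. The assignment used the deposited strand and a distance of up to 250 bp from the border. It placed 3027 junctions (90.4%) at a Jk border.

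The borders are shown first because each junction is read against them. The sequences are the plus strand of mm10 chromosome 6, built as a consensus of 3340 member reads, with the nonamer and heptamer of the recombination signal in capitals. The coding segment starts at the base after the heptamer. The heptamer and nonamer were read at their fixed places against CACTGTG and GGTTTTTGT.

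Jk1, chr6:70722523-70722599: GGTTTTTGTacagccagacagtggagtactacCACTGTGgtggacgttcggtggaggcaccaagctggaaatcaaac

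Jk2, chr6:70722877-70722954: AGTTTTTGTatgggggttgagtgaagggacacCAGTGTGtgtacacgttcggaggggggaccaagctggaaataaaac

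Jk3, chr6:70723184-70723260: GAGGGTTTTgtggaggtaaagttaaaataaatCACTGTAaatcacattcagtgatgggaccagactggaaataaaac

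Jk4, chr6:70723508-70723585: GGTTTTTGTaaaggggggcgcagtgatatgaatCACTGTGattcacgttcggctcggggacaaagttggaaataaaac

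Jk5, chr6:70723847-70723923: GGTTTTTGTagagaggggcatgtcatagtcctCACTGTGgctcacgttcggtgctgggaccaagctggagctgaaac

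Jk1, Jk4 and Jk5 matched all 7 heptamer and all 9 nonamer bases. Jk2 matched 6 and 8. Jk3 matched 6 of 7 heptamer bases but 4 of 9 nonamer bases, and it was the border with fewest junctions, 28 of 3027. The spacer between the motifs was 23 bp, and 24 bp at Jk4. At least 11 reads covered each base of these windows, and the most frequent base had at least 86.6% of reads.

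Junctions themselves differed between genotypes in what lay at the joint. The examples below give 24 bases on each side of the joint, starting with c-Myc. In the WT examples the capitals are inserted bases found in neither partner. In the others they are microhomology, that is, bases that both partners share at the joint.

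WT, signal side of Jk5, read 4 times in 4 libraries: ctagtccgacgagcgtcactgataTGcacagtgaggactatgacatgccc

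WT, coding side of Jk1, read 3 times in 3 libraries: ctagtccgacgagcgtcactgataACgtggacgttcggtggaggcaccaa

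Ku70-/-, signal side of Jk2, read 4 times in 4 libraries: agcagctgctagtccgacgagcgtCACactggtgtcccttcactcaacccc

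Ku70-/-, coding side of Jk1, read 2 times in 2 libraries: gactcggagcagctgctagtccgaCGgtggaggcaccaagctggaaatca

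Lig4-/-Ku70-/-, signal side of Jk1, read 2 times in 2 libraries: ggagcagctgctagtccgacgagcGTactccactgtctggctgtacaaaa

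Lig4-/-Ku70-/-, coding side of Jk1, read 1 time: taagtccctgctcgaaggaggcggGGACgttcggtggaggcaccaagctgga

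In the 2 WT examples neither end lost a base: the c-Myc part runs to the break, and the partner begins at the heptamer cacagtg or at the Jk1 base gtggacg. The Ku70-/- Jk2 example also begins at the whole heptamer, of which it shares 3 bases with c-Myc 5 bp before the break. The Ku70-/- Jk1 example lost 9 bp of Jk1 and 13 bp of c-Myc. The Lig4-/-Ku70-/- examples lost 10 and 2 bp of Jk1 and 8 and 36 bp of c-Myc.

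Libraries held 74 to 55809 junctions in all, from sets that the authors normalised to 201858 to 600000 raw reads. No read name occurred in more than 1 library, and 10 of 3333 distinct fragments did. The 3 libraries that stand apart shared a sequencing run: Ku70-/- clone A1 replicate 1, Lig4-/- clone A1 set b replicate 2 and WT clone A set b replicate 2. They held 29 of 30 members whose partner sequence ran unbroken across the uncut Jk1 border, from 6 to 192 bp inside it. These read-through junctions were 7, 11 and 11 of the members in those libraries, and their source was not tested. Reads here carry no molecular identifiers and may be copies of 1 molecule, so intervals and limits below cover counting error only.

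Translocations to the Jk region were rare without Lig4. In lineage A, WT libraries had 28.5, 24.2 and 13.6 members per 100000 raw reads, while Lig4-/- libraries had 0, 0.252 and 0. In lineage B, WT libraries had 40.2, 41.0 and 46.8 members per 100000 raw reads, and Lig4-/- libraries 0, 0.333 and 0.167. Every WT library of these sets was above every Lig4-/- library of them. In set b, which was not in the test, WT clone A had 2.25, 11.6 and 10.3 members per 100000 raw reads and Lig4-/- clone A1 had 0, 3.54 and 0, all of the latter read-through, so that the highest Lig4-/- library there lay above the lowest WT library. Pooled, WT clone A held 263 members against 1 in Lig4-/- clone A1, a ratio of 263 (95% exact interval 46.8 to 10427). WT clone B held 768 against 3 in clone B1, a ratio of 256 (87.3 to 1244). Junctions of all kinds fell as well, from 109512 in WT clone A to 397 in Lig4-/- clone A1. In lineage B they fell from 113477 to 423, so the drop was not confined to the Jk region. On the log2 scale of members plus 0.5 per 100000 raw reads, the difference was -7.28 (exact permutation p = 0.005, the smallest that 400 relabellings within lineages allow, adjusted p = 0.0131 over 34 tests). That scale understates differences against libraries at 0. How often Cas9 or RAG cut was not measured in these lists, so fewer cuts and fewer joins cannot be told apart.

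Jk-region junctions were also a smaller part of what remained. Members made up 14.0% ± 1.72 (SD, n = 3) and 16.3% ± 4.15 of interchromosomal junctions in WT clones A and B, against 0.422% ± 0.731 and 1.11% ± 1.14 in Lig4-/- clones A1 and B1. The difference was -14.39 percentage points (exact permutation p = 0.005, adjusted 0.0131). The Lig4-/- shares rest on 249 and 264 interchromosomal junctions in all. The rare Lig4-/- members were 17 over all G1-arrested sets, 11 of them read-through junctions of set b replicate 2. The other 6 held 2 on the Jk1 coding side, 3 on signal sides of Jk1, Jk2 and Jk5, and 1 beyond the borders.

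Restoring Lig4 brought the junctions back. Lig4-/- clone A1 set c had 0, 1 and 1 members and Lig4-/- clone C had 0, 0 and 0. With Lig4 restored, clone A1 had 67, 110 and 136 members and clone C had 41, 31 and 45. These were 51.7 ± 17.3 and 14.3 ± 2.64 members per 100000 raw reads (SD, n = 3). The difference on the log2 scale was 6.44, of 6.60 in lineage A and 6.29 in lineage C (exact permutation p = 0.005, adjusted 0.0131). In lineage C the pooled rate was at least 39-fold higher, set against a limit of 3 members over the Lig4-/- group. Junctions of all kinds rose as well, from 579 to 32693 in lineage A and from 673 to 133146 in lineage C. As a share of interchromosomal junctions, members reached 14.9% ± 1.70 in +Lig4 clone A1 but 3.67% ± 1.13 in +Lig4 clone C.

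Deleting Ku70 also brought junctions to the Jk region back in Lig4-/- cells. The Lig4-/-Ku70-/- libraries had 9, 15 and 47 members in clone A1_1 and 74, 87 and 97 in clone C1. The rates were 11.7 ± 10.1 and 31.5 ± 4.22 members per 100000 raw reads (SD, n = 3). Every library of this genotype was above every Lig4-/- library, and the log2 difference was 5.81 (exact permutation p = 0.005, adjusted 0.0131). Their spread in clone A1_1 was wide, from 4.46 to 23.3 members per 100000 raw reads. The pooled ratio was 35.5 (95% exact interval 9.47 to 299) in lineage A and at least 86-fold in lineage C. Junctions of all kinds also rose, from 579 to 28925 in lineage A and from 673 to 129164 in lineage C. In share of interchromosomal junctions they reached 2.67% ± 0.958 and 2.94% ± 0.419, a difference of 2.12 points from Lig4-/- cells (exact permutation p = 0.01, adjusted 0.0227). Without overlaps of 8 bp or more this share difference was 1.55 points (p = 0.125 by the same exact test).

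Putting Ku70 back into Lig4-/-Ku70-/- cells lowered the number again. The +Ku70 libraries had 0, 0 and 3 members in clone A1_1 and 2, 5 and 0 in clone C1, below every parental library. The log2 difference was -4.91 (exact permutation p = 0.005, adjusted 0.0131). The pooled parental rate was 23.7 times (95% exact interval 7.78 to 118) that of +Ku70 cells in lineage A, and 36.9 times (17.6 to 92.6) in lineage C. Junctions of all kinds fell too, from 28925 to 512 in lineage A and from 129164 to 6691 in lineage C. The share of interchromosomal junctions was 1.84 points lower (exact permutation p = 0.025, adjusted 0.0531), which did not pass after adjustment, and with the replicate number as a block its p was 0.0625 by an exact sign-flip test. The 10 members of +Ku70 cells lay on the signal side of Jk1 (5), the coding side of Jk1 (2), both sides of Jk2 (1 each) and in the intron before Ck (1). None of the 10 held an insertion, and 5 held an overlap of at least 2 bp.

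In Ku70-/- cells with Lig4 the number of members was not uniformly changed. In lineage A, Ku70-/- libraries had 7.06, 16.9 and 7.06 members per 100000 raw reads, against 13.6 to 28.5 in the WT set compared. Against WT clone A set b, which was not in the test, the direction was turned, with means of 10.3 in Ku70-/- clone A1 and 8.05 in that set and overlapping libraries. In lineage B they had 70.0, 56.3 and 95.5, above all 3 WT libraries, which had 40.2 to 46.8. The mean log2 difference was -0.19 (exact permutation p = 0.665, adjusted 0.942), made of -1.15 in lineage A and 0.76 in lineage B. Lineage B was sequenced in 1 run, and every Ku70-/- library there exceeded every WT library, by 0.27 to 1.25 on the log2 scale. No sequencing run held both groups compared for Ku70-/- against WT in lineage A, Lig4-/-Ku70-/- against Lig4-/- in lineage C, Lig4 add-back against Lig4-/- in both lineages and cycling against G1 cells. Run and group cannot be told apart there. As a share of interchromosomal junctions, members fell by 7.71 points (exact permutation p = 0.01, adjusted 0.0227). Interchromosomal junctions numbered 1851 in WT clone A and 3464 in Ku70-/- clone A1, and 5019 and 12234 in lineage B. In lineage B the share fell although members rose from 768 to 1331. The share was 3.41% ± 0.935 in Ku70-/- clone A1 and 11.5% ± 2.65 in clone B1 (SD, n = 3). The highest Ku70-/- clone B1 library, at 14.5%, lay within the WT range.

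**Figure D1:**
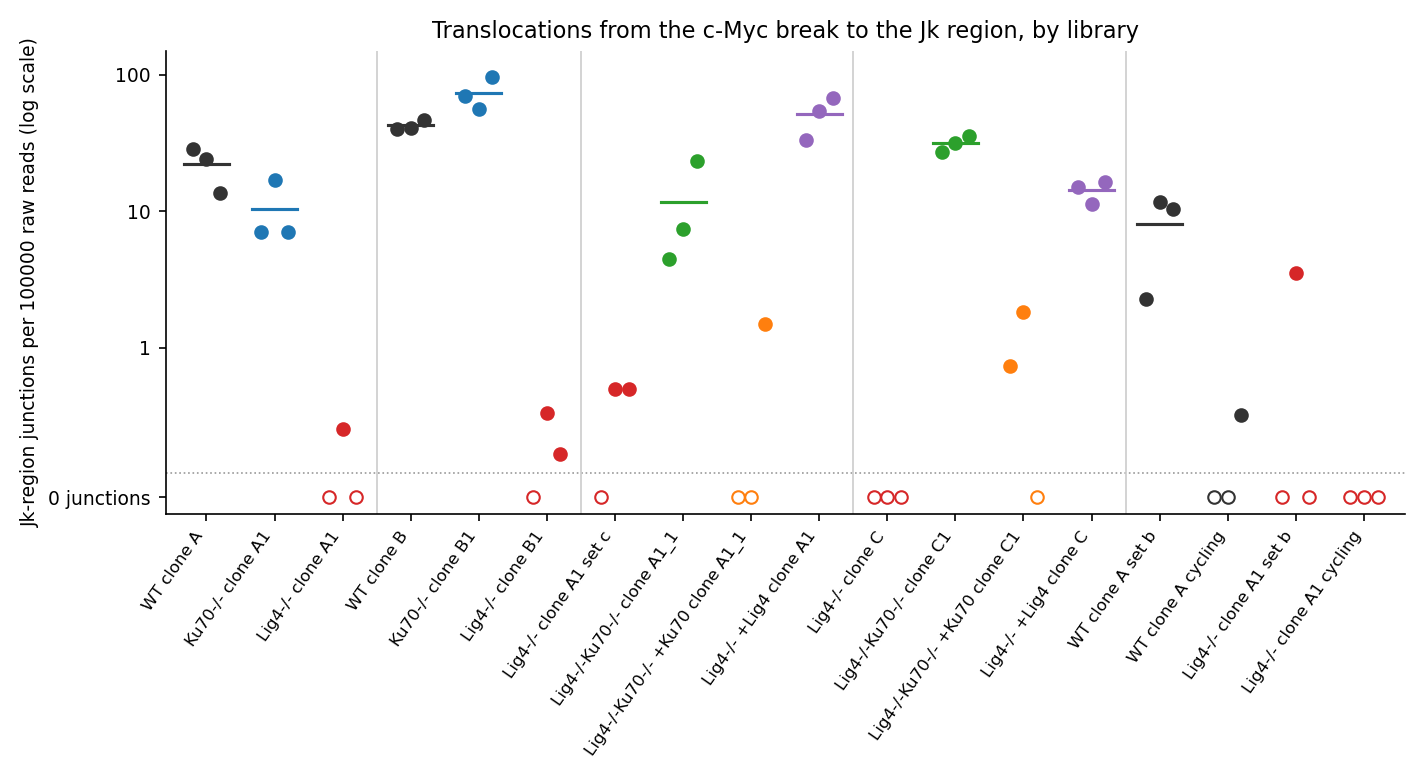
Members per 100000 raw reads on a log axis, with 1 point per library and the line at the mean of 3 libraries where no library is at 0; open points below the dotted line are libraries with 0 members. Outside set b, WT libraries in G1 sit between 13.6 and 46.8 and Lig4-/- libraries at or below 0.495, and Lig4-/-Ku70-/- libraries between 4.46 and 35.5.

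Cycling WT cells had almost no members. WT clone A set b, in G1, had 7, 36 and 32 members (2.25, 11.6 and 10.3 per 100000 raw reads), and cycling WT clone A had 0, 0 and 1. The groups did not overlap. The log2 difference was -4.84 (exact permutation p = 0.1, the smallest that 3 against 3 libraries allow), and the pooled ratio was 75 (95% exact interval 13.1 to 3001). The cycling libraries still held 552 interchromosomal junctions in all, against 705 in G1, and the member share was 0.163% ± 0.282 against 9.70% ± 3.90. Without the read-through junctions the log2 difference was -4.67. Cycling Lig4-/- cells had 0 members in each library, with a 95% exact upper limit of 0.396 per 100000 raw reads over the group. Their G1 partners had 0, 11 and 0, all 11 read-through. The cycling effect in Lig4-/- minus that in WT was 3.34 on the log2 scale (exact permutation p = 0.3), and 4.67 without read-through junctions (p = 0.1 by the same exact test), where the Lig4-/- groups are both at 0.

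The side of the border was the clearest difference in place. In WT the c-Myc end joined the coding side of Jk1 (196 members), Jk2 (87) and Jk4 (205), and the signal side of Jk2 (220), Jk4 (97) and Jk5 (236). It was almost never joined to the signal side of Jk1, with 4 of 1059 border junctions (0.378%, 95% exact interval 0.103% to 0.964%). The coding side of Jk5 was as rare, with 5 of 1059 (0.472%, 0.153% to 1.10%). Jk1 and Jk5 are the outermost segments, Jk1 nearest to the Vk segments and Jk5 nearest to Ck. Jk3 had 9 WT members on the coding side, with a median loss of 114 bp, and 0 on the signal side.

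The Jk1 signal side was used in Ku70-/- cells. It held 327 of 1277 border junctions (25.6%, 95% exact interval 23.2% to 28.1%), the most of any border and side. It was also the most used in Lig4-/-Ku70-/- cells, with 115 of 297 (38.7%, 33.1% to 44.5%). Of junctions at Jk1, the signal side took 0, 0 and 6.25% in the WT clone A libraries and 75.4% ± 6.30 in Ku70-/- clone A1 (SD, n = 3). In lineage B it took 2.23% ± 2.40 in WT and 54.9% ± 3.11 in Ku70-/-. No Ku70-/- library overlapped a WT library, and the difference was 63.0 points (exact permutation p = 0.005, adjusted 0.0131, higher in 6 of 6 libraries). In Lig4-/-Ku70-/- cells this share was 59.4% ± 10.3 (n = 2, clone A1_1) and 65.8% ± 0.878 (n = 3, clone C1). Restoring Lig4 in Lig4-/- cells gave 35.4% ± 11.6 (n = 3, clone A1) and 17.1% ± 4.04 (n = 2, clone C), values between WT and the Ku70-deficient cells. This measure was chosen after the counts by border were seen.

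The coding side of Jk5 was little used in the other genotypes too, with 20 of 1277 border junctions in Ku70-/-, 3 of 297 in Lig4-/-Ku70-/- and 7 of 379 in +Lig4 cells. Its signal side took 22.3% of WT and 23.5% of +Lig4 border junctions, but 9.48% in Ku70-/- and 6.73% in Lig4-/-Ku70-/-. The coding side of Jk4 took 19.4% in WT and 3.92% in Ku70-/- cells. The signal side of Jk2 took 20.8% in WT, 19.5% in Ku70-/-, 16.8% in Lig4-/-Ku70-/- and 18.5% in +Lig4 cells. These shares by segment were not tested.

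Over all Jk borders, the coding side made up 45.4% ± 4.18 and 50.6% ± 1.07 of junctions in WT clones A and B (SD, n = 3). It made up 18.7% ± 7.79 and 35.6% ± 1.12 in Ku70-/- clones A1 and B1. The difference was -20.87 points, with no overlap between groups (exact permutation p = 0.005, adjusted 0.0131). The second G1 set of WT clone A went against this contrast: its coding-side share was 17.3% ± 6.76, below WT clone A and within the range of Ku70-/- clone A1, on 63 border junctions. That set was not in the test. Its Jk1 signal side held 0 junctions and its Jk1 coding side only 6. The Jk1 signal side held 1 of 257 border junctions in WT clone A and 3 of 739 in clone B.

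**Figure D2:**
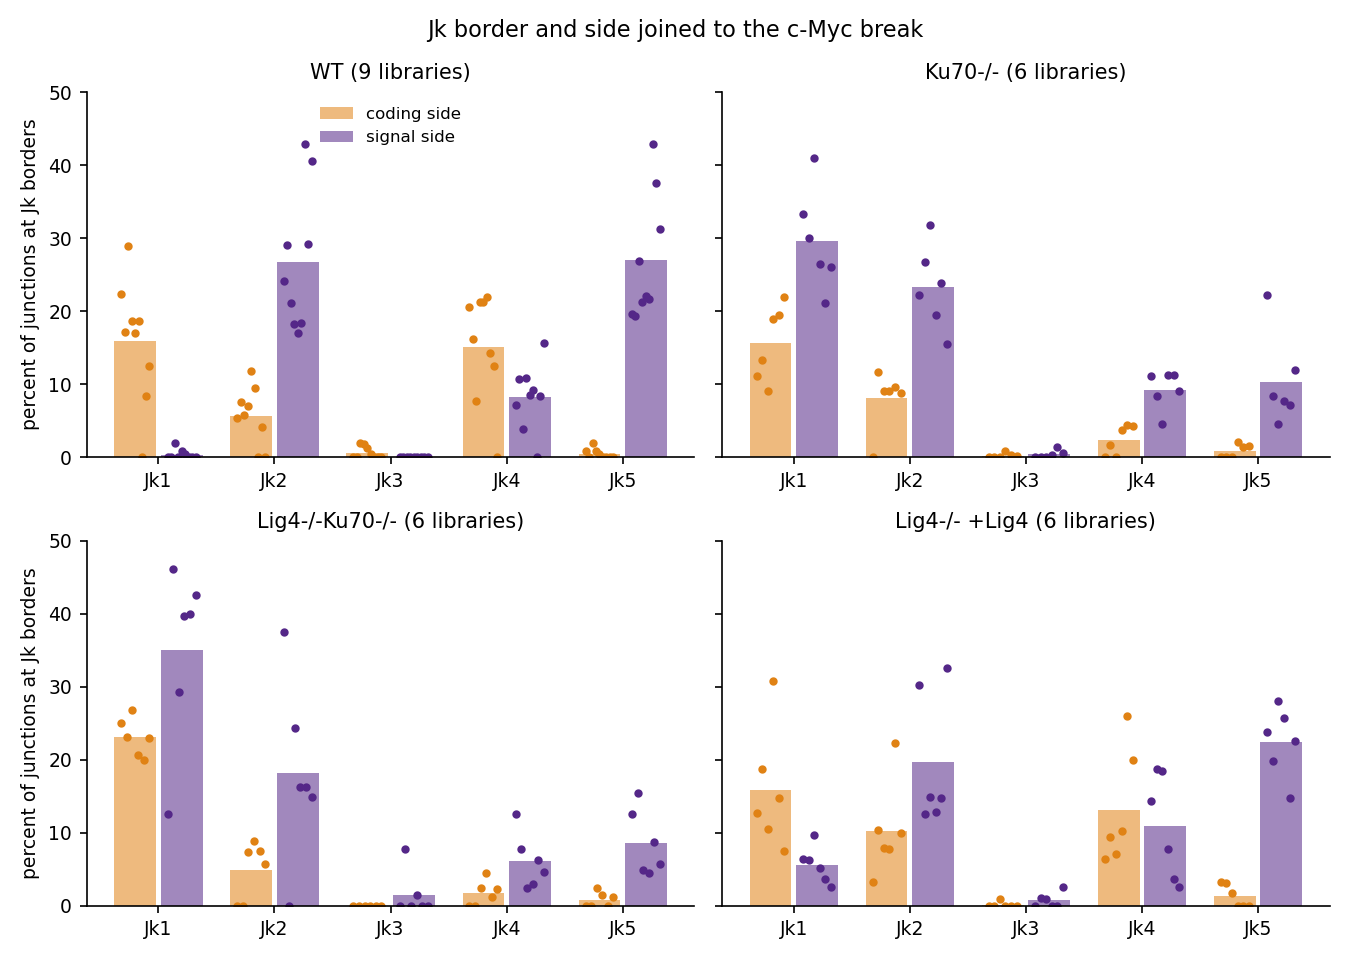
Percent of junctions at Jk borders on the coding and the signal side of each Jk segment, with bars at the mean and 1 point per library that had at least 5 such junctions. The signal side of Jk1 is near 0 in WT (4 of 1059 junctions) and the tallest bar in Ku70-/- and Lig4-/-Ku70-/- cells, while Jk3 is low in all 4 panels.

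WT junctions lay close to the borders. The most frequent WT position on each side was at or next to the border: 70722562 on the coding side of Jk1 (42 of 196), 70723548 at Jk4 (53 of 205), and 70722915 and 70723885 on the signal sides of Jk2 (67 of 220) and Jk5 (86 of 236). Of WT border junctions, 30.4% had lost no base at Jk, 56.0% none at c-Myc, and 18.3% (194 of 1059) none at either end. A position up to 5 bp past the border was counted as no loss. Of the 194 junctions with both ends whole, 143 (73.7%) held inserted bases and 34 were joined directly. The median loss was 2 bp on each Jk side in WT. Over 7 libraries with enough junctions on both sides the mean difference of medians was 0.714 bp (exact sign-flip p = 0.312, coding minus signal).

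Without Ku70 no junction kept both ends whole, with 0 of 1277 in Ku70-/- and 0 of 297 in Lig4-/-Ku70-/- cells. The median Jk loss per library was 12.5, 28.5 and 17 bp in Ku70-/- clone A1 and 31, 29 and 34 bp in clone B1, against 1 to 3 bp in WT clones A and B. The difference was 0.93 on the scale of log10 of 1 plus the median loss in bp (exact permutation p = 0.005, adjusted 0.0131), with no overlap. By the library medians, the c-Myc end lost 0, 0.5 and 0 bp in WT clone A set b, which was not in the test. It lost 32, 39 and 27 bp in Ku70-/- clone A1, 33, 32 and 30 bp in clone B1, and 0 bp in every WT library compared. That difference, 1.52 on the same scale, also had p = 0.005 by the exact permutation test (adjusted 0.0131), and the measure was added after the values were seen. The largest c-Myc loss was 78 bp in each of Ku70-/-, Lig4-/-Ku70-/- and +Lig4 cells, and 68 bp in WT. Whether the length of c-Myc sequence in the reads sets that limit was not tested. Losses at Jk were counted up to 250 bp by the window.

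Coding sides lost more than signal sides in the pooled Ku70-/- junctions, with medians of 44 and 25 bp, and in Lig4-/-Ku70-/- cells, with 45.5 and 22 bp. A whole Jk end was kept by 35 of 834 signal-side junctions (4.20%) but 2 of 443 coding-side junctions (0.451%) in Ku70-/-, and by 10 of 201 and 0 of 96 in Lig4-/-Ku70-/-. These pooled values were not tested across libraries. On the Jk2 signal side whole ends were kept by 16 of 249 in Ku70-/- and 7 of 50 in Lig4-/-Ku70-/- cells. On the coding side of Jk1 the most frequent position in both genotypes was 70722578, inside the segment, with 20 of 252 and 4 of 66 junctions.

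Cells with Lig4 restored also held junctions with whole ends. Of 379 border junctions, 63 (16.6%) kept both ends, and the pooled median losses were 4 bp on each Jk side and 2 bp at c-Myc. Clone A1 had library medians of 2, 5 and 9 bp at Jk and 0, 5 and 5 bp at c-Myc. Clone C had 2, 1 and 1 bp at Jk and 0 bp at c-Myc in each library, within the range of the WT libraries compared above.

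**Figure D3:**
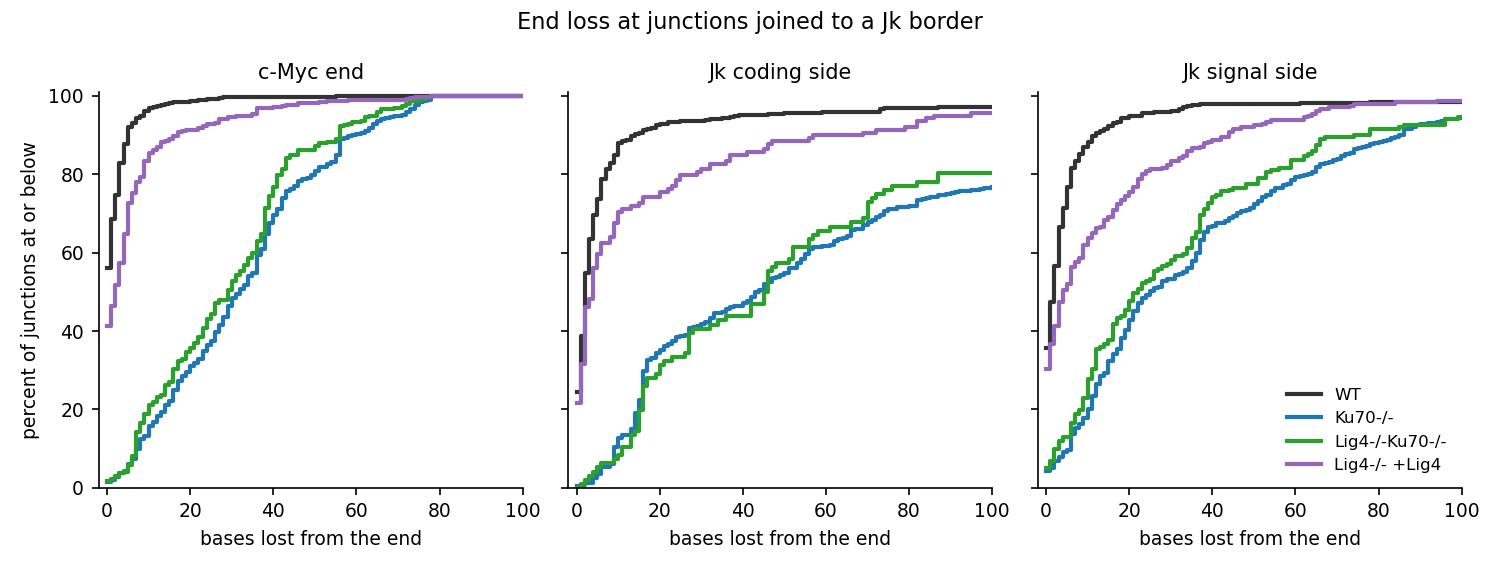
Cumulative percent of border junctions by the number of bases lost at the c-Myc end, the Jk coding side and the Jk signal side. WT begins at 56.0%, 24.5% and 35.7% with no loss and Ku70-/- at 1.49%, 0.451% and 4.20%; Lig4-/-Ku70-/- lies near Ku70-/-, and +Lig4 between WT and both.

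Inserted bases marked WT junctions. Insertions were present in 75.2%, 70.8% and 79.6% of members in WT clone A, and in 51.5% ± 2.01 in clone B and 64.0% ± 6.52 in clone A set b (SD, n = 3). In Ku70-/- they were present in 14.3%, 0% and 0% of members in clone A1 and in 1.89% ± 0.221 in clone B1. The difference was -60.02 points, with no overlap (exact permutation p = 0.005, adjusted 0.0131). The 14.3% is 4 members of the Ku70-/- library with read-through junctions, and without those junctions the difference was -62.4 points. WT insertions were short: 566 of 638 held 1 to 4 bases, and the median was 2 to 3 bases in each WT group. G and C made up 61.8% of inserted bases in clone A and 56.1% in clone B. On coding sides of clone B, C made up 43.8% and G 13.2% of inserted bases, and on signal sides G made up 30.5% and C 24.5%.

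Some insertions matched the reverse complement of the end beside them. Among WT insertions of at least 2 bases next to a whole Jk end, the last 2 bases were such a match in 18 of 50 coding-side and 51 of 100 signal-side junctions. Next to a Jk end that had lost bases the counts were 15 of 144 and 7 of 116. In +Lig4 cells they were 2 of 9 and 13 of 27 next to whole ends, and 1 of 18 and 1 of 25 next to ends with loss. These counts were not tested.

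Overlaps of at least 2 bp were a larger share of all members without Ku70. An overlap of at least 2 bp was present in 4.39% ± 0.827 and 12.2% ± 1.12 of members in WT clones A and B, and in 29.5% ± 10.8 and 27.1% ± 3.07 in Ku70-/- clones A1 and B1 (SD, n = 3). The difference was 20.0 points, higher in 6 of 6 libraries than in any WT library (exact permutation p = 0.005, adjusted 0.0131). This share is taken over all members, and a joint with inserted bases cannot hold an overlap. Such joints were 57.7% of WT but 1.99% of Ku70-/- members, so the contrast is not independent of that in insertions. Overlaps among joints without insertions were not tested. These overlaps were short, with 353 of the 392 Ku70-/- ones at 2 to 4 bp. Of Ku70-/- members, 42.7% were blunt, with neither overlap nor insertion, 28.3% overlapped by 1 bp and 27.0% by 2 bp or more. Over all WT members in G1 the shares were 19.7%, 12.7% and 9.95% in the same order. Blunt joints made up 49.2% in Lig4-/-Ku70-/- cells. The overlap bases at Jk borders were 67.4% G and C in Ku70-/- and 66.9% in Lig4-/-Ku70-/- cells, against 42.8% in WT. The most frequent overlap was GG in both Ku70-deficient genotypes, at 12.5% and 10.6% of overlaps, and TG in WT, at 13.4%.

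**Figure D4:**
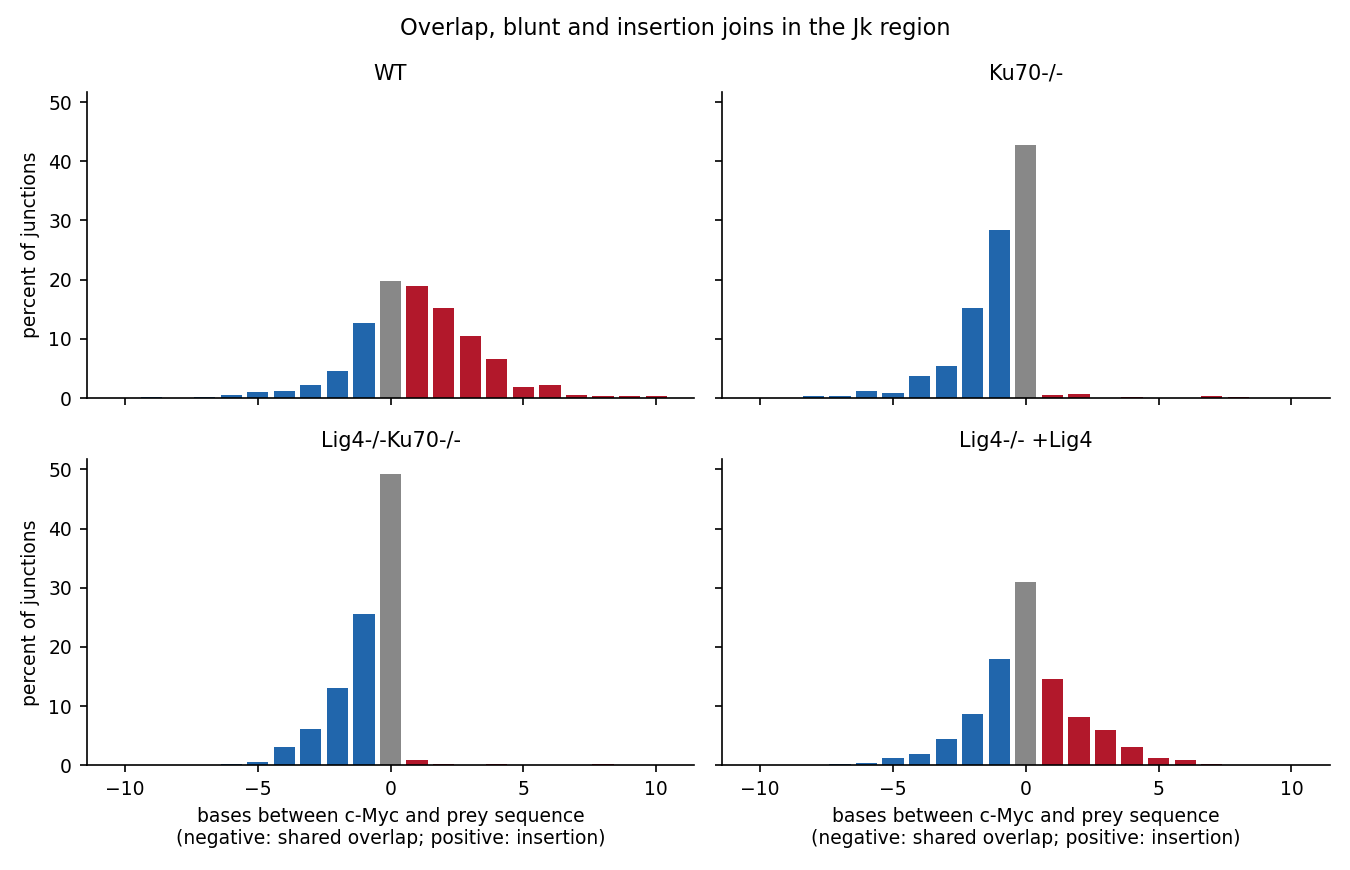
Percent of members by the number of bases between the c-Myc and the partner sequence, from an overlap of 10 bases (negative) through 0 to an insertion of 10 bases (positive). WT and +Lig4 extend to the right, with insertions in 57.7% and 34.4% of members, while insertions make up 1.99% in Ku70-/- and 2.13% in Lig4-/-Ku70-/- cells.

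In lineage A, Lig4-/-Ku70-/- and Ku70-/- members could be compared, though an exact permutation of 3 against 3 libraries cannot go below p = 0.1. Abundance differed by -0.02 on the log2 scale (exact permutation p = 1), the microhomology share by 1.27 points (p = 1, same test), the insertion share by -1.06 points (p = 1) and the Jk loss by -0.06 on the log10 scale (p = 0.7). The pooled rate ratio was 1.13 (95% exact interval 0.834 to 1.53). The Jk1 signal-side share was 59.4% and 75.4%, a difference of -15.93 points without overlap (exact permutation p = 0.1, n = 2 and 3). Differences of these sizes are within or near the spread between libraries, which is not evidence that the genotypes act alike.

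Vk segments were the other Igk partner, and their weight against Jk turned over. The window for Vk was the rest of Igk on chromosome 6 before the Jk region. WT clone A held 263 Jk and 26 Vk members, so that Jk made up 90.5% ± 3.11, and in clone B it made up 84.6% ± 2.78 (SD, n = 3). In Ku70-/- clone B1 there were 1331 Jk and 3180 Vk junctions. The Jk share was 27.3% ± 3.47 in clone A1 and 29.9% ± 3.19 in clone B1. The difference was -58.92 points with no overlap (exact permutation p = 0.005, adjusted 0.0131). It was 27.1% ± 10.1 and 12.5% ± 2.08 in Lig4-/-Ku70-/- clones A1_1 and C1, and 50.7% ± 2.52 and 52.8% ± 11.4 in +Lig4 clones A1 and C, with Vk and Jk near balance. This measure was also added after the values were seen.

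**Figure D5:**
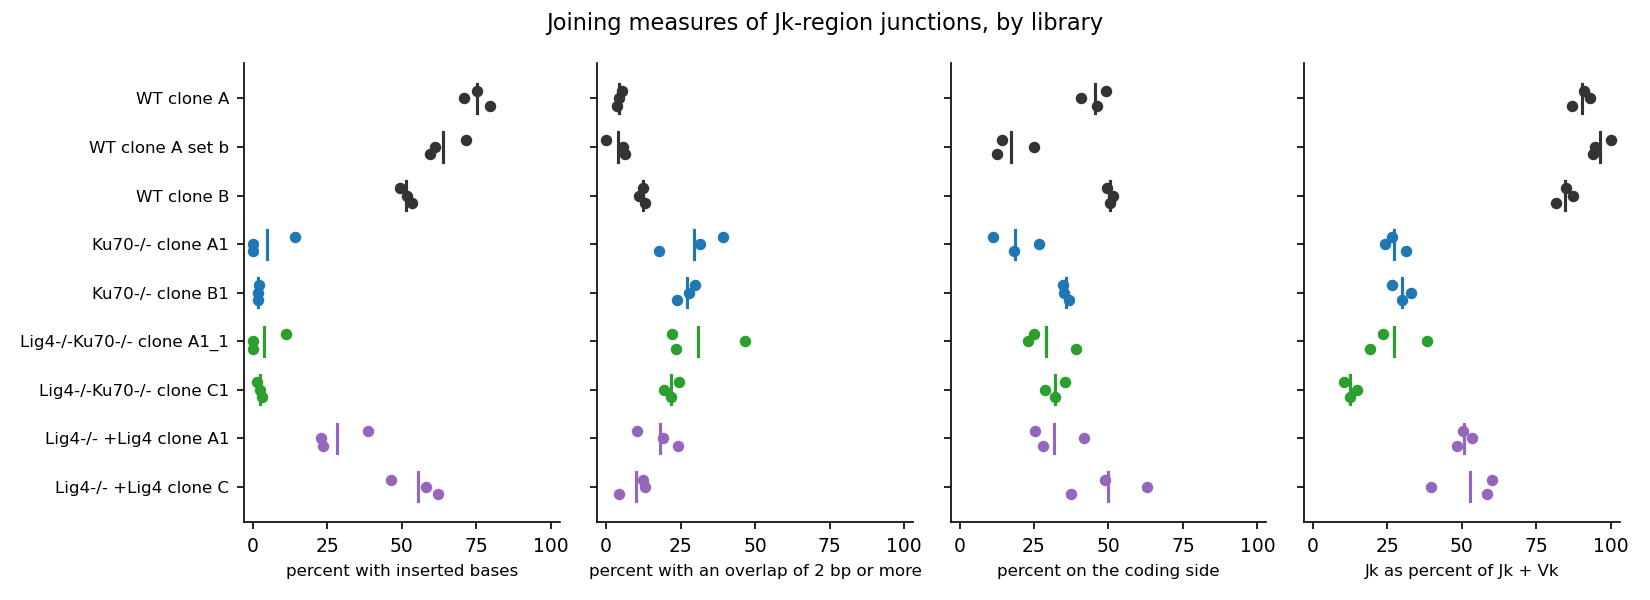
Insertion share, share with an overlap of at least 2 bp, coding-side share and Jk share of Jk plus Vk junctions, in percent, with 1 point per library and a line at the mean of 3. Insertion and Jk shares of all 9 WT libraries lie above all Ku70-/- and Lig4-/-Ku70-/- libraries, and the coding-side share of WT clone A set b lies among the Ku70-/- values.

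Joint structure at Jk was set against other partners within the same libraries. In WT, members had 19.5 points more insertions than interchromosomal junctions outside Igk and 13.7 points fewer overlaps of at least 2 bp, in 9 of 9 libraries each (exact sign-flip p = 0.00391, the smallest that 9 libraries allow). The overlap share again has joints with insertions in its denominator, so these 2 contrasts are not independent. In Ku70-/- cells insertions were less frequent at Jk, with 3.33% ± 5.45 at Jk and 27.6% ± 9.55 outside Igk in 6 of 6 libraries (exact sign-flip p = 0.0312, SD over 6). Lig4-/-Ku70-/- libraries had 2.98% ± 4.17 and 29.96% ± 6.28, in 6 of 6 libraries (exact sign-flip p = 0.0312). Adjusted over 32 such tests, these values were 0.0625 for both WT contrasts and 0.2 for Ku70-/- and Lig4-/-Ku70-/- cells (exact sign-flip), and none passed. Insertion shares at Jk and Vk differed by 1.35 points in Ku70-/- and 0.580 points in Lig4-/-Ku70-/- (exact sign-flip p = 1 and 0.719).

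Beyond the Jk borders, members gathered at 2 places, picked after their counts were seen. The recombining sequence RS is a recombination signal downstream of Ck, whose joining to Igk deletes Ck. The other site is a lone heptamer in the intron between Jk5 and Ck, to which RS can be joined. RS lay 25.0 kb downstream of Ck, just past the end of the lncRNA gene Gm30211 (70729213 to 70751690), and the intron heptamer 1091 bp after Jk5 and 1421 bp before Ck. They are shown because both hold the heptamer of the Jk segments.

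RS, chr6:70751742-70751818: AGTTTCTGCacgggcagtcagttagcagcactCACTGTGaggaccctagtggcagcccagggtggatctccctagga

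Intron heptamer, chr6:70724984-70725043: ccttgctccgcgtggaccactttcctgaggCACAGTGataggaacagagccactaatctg

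Both were found by searching for an exact heptamer, CACTGTG after Ck and CACAGTG in the intron, and keeping the match with most junctions beside it. Their full heptamers and opposite orientations are therefore by construction. RS matches 6 of 9 nonamer bases. The outermost bases rest on 1 read. For scale, either orientation of this heptamer is present in 1.60% of the 77-base windows that open the RefSeq promoter sequences of GRCm38.p6. That share is no test of sites that were searched for by the heptamer. Within 300 bp of the intron heptamer lay 16 of 1106 WT members, 68 of 1454 Ku70-/- members and 28 of 430 +Lig4 members. Most were on the side away from the heptamer, 59 of the 68 in Ku70-/-. RS held 6 WT, 36 Ku70-/- and 17 +Lig4 members, split between its sides as 17 and 19 in Ku70-/-. Ck itself held 0 of 3347 members, and Gm30211 held 23. The remaining 135 members lay elsewhere in the window.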

How the data were processed

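Junction lists made by the authors' JoinT-seq pipeline, 1 row per read, were used for all 54 Cas9 libraries. Bowtie2 and mm10 are named in the submitters' processing notes, without a version. Positions, strands and read coordinates (unit "other") were taken as deposited by the authors, and no count model was fitted. Libraries were prepared without the enzyme blocking step, per the labels' protocols, and raw read numbers are the normalization numbers in the labels. The overlap or insertion was the start of the partner minus the end of c-Myc on the read, minus 1. Shares needed at least 5 junctions in a library. Groups were compared by two-sided exact permutation of library values within lineages, and within libraries by exact sign flips, with Benjamini-Hochberg adjustment over 34 tests between groups (threshold 0.05). Scripts used Python 3.11.15, numpy 2.4.6, pandas 2.3.3 and scipy 1.17.1 and were tested on simulated data.

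The members and lists were chosen with earlier results of these data known. The text names all 5 Jk segments, Ck, both sides of each border, and the most frequent positions there. The replicate numbers were checked as a pairing: correlations of same-numbered libraries' deviations ran from -0.95 to 1.00 over the tests, so they were not taken to pair the libraries. No genome was used, so border sequences are read consensus.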

Additional observations from a re-analysis of the deposited data

Results flagged for a closer look

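The change in Jk-region abundance between Ku70-/- and WT cells was of opposite sign in the 2 lineages. It was -1.15 on the log2 scale in lineage A and 0.76 in lineage B, a difference of -1.91 (exact permutation p = 0.015, adjusted p = 0.27 over 18 such lineage tests, which does not pass). Of the WT libraries compared, 2 of 3 Ku70-/- libraries lay below all in lineage A, and 3 of 3 lay above all in lineage B. Against WT clone A set b, at 2.25, 11.6 and 10.3 members per 100000 raw reads, the Ku70-/- clone A1 mean of 10.3 was above the mean of 8.05, so the opposite sign rests on which WT set is used. Clone, sequencing run and raw read number also differ between the lineages, and their part in this was not tested.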

How the results depend on the processing

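Of 493 alternative values for 45 results, 467 kept their direction and side of the threshold. An effect of 0 was counted as keeping its direction. Where at most 3 libraries were set against 3, the exact permutation p cannot go below 0.1. Values of those comparisons could change only in sign, so the total overstates how many calls were put to a test. The read-through exclusion and the results on c-Myc loss, Jk against Vk and the Jk1 signal side were added after seeing the data. The Jk share of interchromosomal junctions in Lig4-/-Ku70-/- against Lig4-/- cells was 1.55 points (exact permutation p = 0.125) without overlaps of 8 bp or more. For Ku70 add-back it kept -1.84 points with the replicate block (exact sign-flip p = 0.0625) and ran from -2.28 to -1.58 when libraries were left out, with p = 0.05 without replicate 1 or 2 of +Ku70 clone A1_1 or replicate 2 of its parent. Its Jk share of Igk junctions ran from -13.03 to -7.89, with p = 0.02 (exact permutation) without replicate 2 of +Ku70 clone C1. The replicate block changed no other call, and in the other tests with 6 pairs that passed its p was 0.0312. The comparison of Lig4-/-Ku70-/- with Ku70-/- cells changed sign most: abundance was 0.0081 with a pseudocount of 1 and 0.12 without read-through junctions, where the insertion share was 3.70 points, c-Myc loss -0.0135 and the Jk share of Igk 1.51 points. Leaving out libraries there gave -0.67 to 0.49 for abundance, -6.68 to 6.16 for microhomology, -4.76 to 3.70 for insertions, -0.18 to 0.0287 for Jk loss, -0.0308 to 0.0466 for c-Myc loss and -5.92 to 3.72 for the Jk share of Igk. The cause was not tested. 12 settings gave no value, 8 of them for a minimum of 20 junctions. All 34 results kept their call when each distinct junction was counted once. The LAM-HTGTS lists gave 11 results, in lineage A only, where no p can pass, and none changed sign. They held the same member reads as the JoinT-seq lists. Interchromosomal junctions, the base of the share, were 882, 1510 and 1072 in Ku70-/- clone A1 by JoinT-seq. They were 1812, 2183 and 2245 by LAM-HTGTS. In WT clone A they were 716, 698 and 437 against 738, 732 and 455. Lig4-/- and cycling libraries had fewer than 5 members each, except Lig4-/- clone A1 set b replicate 2 with 11, all read-through. Their sides, losses and joints are therefore without a test.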
